A study of Mus musculus with 18 samples.

Results

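Lysosomal cathepsins are the proteases that degrade proteins in the acidic lumen of lysosomes, and 10 of their genes (Ctsa, Ctsb, Ctsc, Ctsd, Ctsf, Ctsh, Ctsk, Ctsl, Ctss and Ctsz) were followed here across B16F10 melanomas injected with a metal-organic framework or with its controls. The genes were chosen by name, as a reading of lysosomal and phagocyte activity after particle injection, and all 10 were found among the 41079 genes of the expression table. All 10 also passed the filter of a mean of at least 1 FPKM (a fragment count scaled by gene length and by the depth of the library), as did 12357 genes in all.

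B16F10 is a pigmented mouse melanoma cell line, and the cells were injected under the skin of female C57BL/6 mice, in the right flank (animal age was not given in the sources used here). From day 6, at a tumor volume of about 50 mm3, tumors were injected every 2 days, and they were taken 48 h after the last injection. There were 6 groups of 3 tumors. PS473@NKMOF-101-[Mn] tumors received the ribozyme in the framework, M5@NKMOF-101-[Mn] tumors its mutant in the framework, and NKMOF-101-[Mn] tumors the empty framework. The groups without framework were PS473@CPs (ribozyme in polymer), Free PS473 (ribozyme alone) and PBS (buffer). PS473 is a Pistol ribozyme, a self-cleaving RNA redesigned to cut the mRNA of PD-L1 (Cd274), and M5 is its catalytically inactive mutant. CPs are cationic polymers, and NKMOF-101-[Mn] is an acid-sensitive framework built from Mn2+ ions and squaric acid. In the sample titles of PS473@NKMOF-101-[Mn] tumors the framework is called NKMOF-102, and the group was read from the treatment description. The Free PS473 values are those of columns that name PBS and PS473, and no title joins these names otherwise. Every group thus carried the same tumor line and the same injection schedule, and 3 groups received the framework. Each library is bulk poly(A) RNA of a tumor piece, in which fewer cells of a type and less RNA per cell cannot be told apart. Nothing states that the 3 tumors of a group came from separate batches of cells, so p-values measure only the spread between these tumors.

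The libraries held an estimated 17212000 to 28401000 fragments, as recovered from the steps between low values. Of the low values in a tumor, 49.5% to 53.6% fell on whole numbers of fragments. Cd274, the ribozyme's target, was at 9.74 to 32.9 FPKM in PS473@NKMOF-101-[Mn], 11.9 to 24.5 in PS473@CPs and 11.7 to 14.0 in Free PS473 tumors. It was at 21.0 to 28.2 FPKM in M5@NKMOF-101-[Mn], 14.1 to 15.9 in NKMOF-101-[Mn] and 12.3 to 21.5 in PBS tumors. Each group with active ribozyme thus overlapped with PBS. Free PS473 lay below both framework groups without active ribozyme, though only just below the empty framework (at most 14.03 against at least 14.07 FPKM). These differences in Cd274 were not tested. The paper reports lower PD-L1 in PS473@NKMOF-101-[Mn] tumors by staining, Western blot and qPCR, which were not analysed here. Melanocyte markers matched the labelled cell line in all 18 tumors, with Dct at 2087 to 3416 FPKM and Pmel at 893 to 1836 FPKM. Content of other tissue varied. The skin epithelium score, the mean log2(FPKM + 1) of 22 keratinocyte genes, ran from 0.27 to 5.75 and was under 1 in 9 tumors, and Krt5 was listed at 0 in 6 tumors. The macrophage score (18 genes, all above 0 in every tumor) ran from 1.93 to 4.05, and the fibroblast score (11 genes) from 1.89 to 4.81. The scores were correlated over the tumors, with r = 0.73 between macrophage and fibroblast scores and r = 0.89 between skin and fibroblast scores.

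Cathepsins are made as inactive precursors, tagged with mannose 6-phosphate in the Golgi, carried to endosomes by receptors and activated as the pH falls. By their catalytic residue Ctsd is an aspartic protease, Ctsa a serine carboxypeptidase, and the others are cysteine proteases held in check by cystatins and stefins. Some are made by nearly every cell, and pigment cells make several of them for their melanosomes, which are lysosome-related organelles. Others are abundant in macrophages and dendritic cells, where Ctss trims the invariant chain (Cd74) from MHC class II molecules. Ctsk is the collagen-degrading protease of osteoclasts and is also made by fibroblasts.

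The promoters of 4 genes are shown because they hold the letters marked in capitals. They were picked for these letters, and the windows of Ctsz and Ctsk, the cathepsins with the smallest and the largest spread within groups, hold neither. The sequences are from RefSeq on build GRCm38.p6 and were matched by gene symbol. Windows run from 250 bases before the start site to 30 bases after it. Capitals mark CACGTG, the E-box read by MITF, TFEB and other helix-loop-helix factors, or ACTTCCTC, which is the complement of GAGGAAGT, a sequence of the kind bound by the myeloid factor PU.1. The windows are chr7:142387798-142388077, minus strand (Ctsd), chr2:164833523-164833802, plus strand (Ctsa, second start site), chr3:95526536-95526815, plus strand (Ctss) and chr7:88277835-88278114, plus strand (Ctsc).
Ctsd: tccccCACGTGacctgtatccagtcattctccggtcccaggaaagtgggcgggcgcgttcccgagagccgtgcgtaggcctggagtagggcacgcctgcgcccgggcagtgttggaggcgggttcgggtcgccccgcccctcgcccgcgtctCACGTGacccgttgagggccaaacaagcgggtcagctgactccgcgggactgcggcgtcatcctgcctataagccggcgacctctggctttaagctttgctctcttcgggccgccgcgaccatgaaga
Ctsa: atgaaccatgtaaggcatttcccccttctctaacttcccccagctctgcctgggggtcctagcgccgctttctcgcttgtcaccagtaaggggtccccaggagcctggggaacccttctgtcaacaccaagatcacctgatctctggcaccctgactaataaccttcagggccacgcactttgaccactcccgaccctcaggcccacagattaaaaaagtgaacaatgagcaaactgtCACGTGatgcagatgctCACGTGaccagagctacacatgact
Ctss: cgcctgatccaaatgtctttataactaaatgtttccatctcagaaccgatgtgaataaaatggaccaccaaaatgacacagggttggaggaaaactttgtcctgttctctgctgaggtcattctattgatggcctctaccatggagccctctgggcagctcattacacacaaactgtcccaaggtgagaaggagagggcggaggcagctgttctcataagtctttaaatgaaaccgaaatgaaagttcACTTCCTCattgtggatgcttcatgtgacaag
Ctsc: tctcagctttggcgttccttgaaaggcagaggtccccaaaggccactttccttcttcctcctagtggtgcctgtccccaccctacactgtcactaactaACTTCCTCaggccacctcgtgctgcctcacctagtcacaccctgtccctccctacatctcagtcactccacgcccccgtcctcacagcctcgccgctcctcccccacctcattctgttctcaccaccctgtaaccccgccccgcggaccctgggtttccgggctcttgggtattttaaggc

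Of the 10 genes, 8 had an entry in the promoter table. Both strands of the full windows, 300 bases with 50 after the start, were searched for letters chosen after the expression values had been seen. CACGTG was found for 4 of the 8 genes (Ctsa, Ctsd, Ctsf and Ctsl), against 7.15% of 32851 promoters. Counting the start site as 0, its first base lay at -245 and -98 in Ctsd, at -12 and 5 at the second start site of Ctsa, at -236 in Ctsl and at -79 in Ctsf. The longer TCACGTGA, which contains CACGTG, was found for Ctsd and Ctsa and in 0.974% of promoters. GAGGAAGT was found for Ctss and Ctsc and in 3.20% of promoters. Of the other letters searched, TATAAA (13.6% of promoters) and a spaced pair of interferon response (ISRE) half-sites (3.44%) were found for Ctss and TTCNNNGAA (8.30%) for Ctsc. A match describes these letters only.

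Levels per gene length, averaged over the 18 tumors, differed widely among the cathepsins. Ctsd had the highest mean, 447 FPKM (369 to 572), rank 101 of all genes, and Ctsz followed with 282 FPKM (237 to 327), rank 163. Ctsd and Ctsz together made up 65.6% to 81.5% of the summed FPKM of the 10 genes in a tumor. Ctsb came next at 108 FPKM (65.9 to 144), then Ctsa at 50.4 FPKM (43.6 to 62.2). Ctsl (32.5 FPKM, 22.4 to 50.7) and Ctss (30.4 FPKM, 8.50 to 50.2) overlapped in their ranges, and so did Ctsh (12.8 FPKM), Ctsc (11.7 FPKM) and Ctsk (9.81 FPKM). Ctsf was the lowest at 1.52 FPKM (0.833 to 2.13), which corresponds to an estimated 44 to 172 fragments in a tumor and limits its precision.

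**Figure D1:**
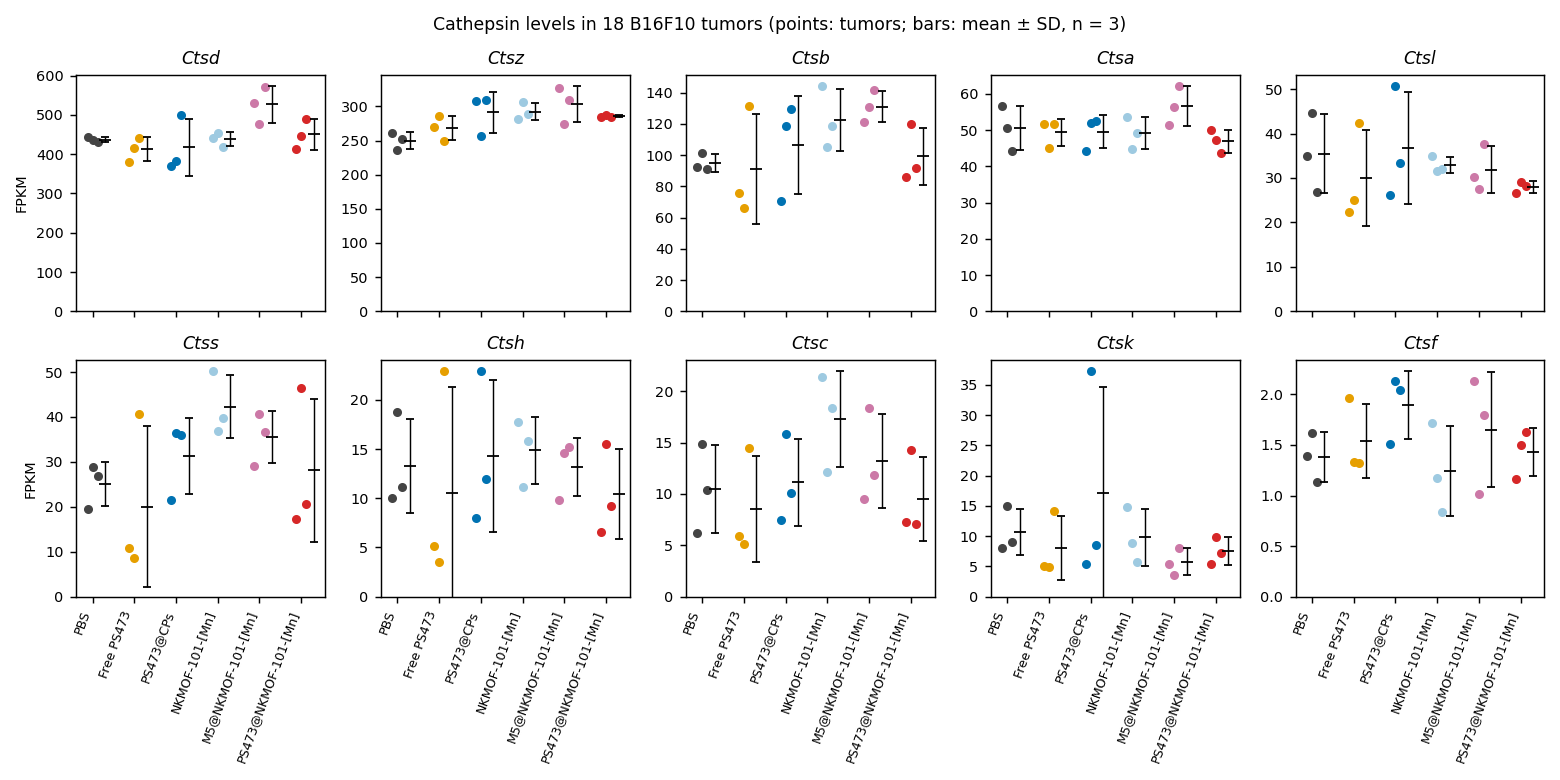
FPKM of each cathepsin (vertical axis, from 0, with its own scale in each panel) in the 6 groups, with 1 point per tumor and bars for mean ± SD (n = 3, cut at 0 where the SD exceeds the mean). Ctsd, Ctsz and Ctsa lie in narrow bands, whereas Ctss, Ctsh, Ctsc and Ctsk spread widely within groups, with the highest Ctsk value, 37.3 FPKM, in 1 PS473@CPs tumor.

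The cathepsins differed in how evenly tumors of the same group expressed them. The SD within groups on the log2(FPKM + 1) scale was 0.098 for Ctsz, 0.13 for Ctsa and 0.13 for Ctsd, against a median of 0.18 over the 12357 genes tested. It was 0.54 for Ctsc, 0.61 for Ctss, 0.69 for Ctsh and 0.75 for Ctsk, above the values of more than 91.9% of genes. Ctsb (0.32), Ctsl (0.33) and Ctsf (0.22) lay between.

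Ctsd, the aspartic endopeptidase, was expressed at 445, 435 and 431 FPKM in the PBS tumors, at 380.3, 417 and 441 FPKM in Free PS473 tumors and at 369, 383 and 499 FPKM in PS473@CPs tumors. With the framework it was at 442, 454 and 419 FPKM (NKMOF-101-[Mn]), at 531, 478 and 572 FPKM (M5@NKMOF-101-[Mn]) and at 413, 447 and 491 FPKM (PS473@NKMOF-101-[Mn]). The M5@NKMOF-101-[Mn] tumors were thus above all tumors of PBS and of the empty framework, and the other groups overlapped with PBS. In the limma fit the difference of M5@NKMOF-101-[Mn] from PBS was 0.27 ± 0.12 (log2, SE), with an unadjusted p of 0.0388 and an adjusted p of 0.999.

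Ctsz, a carboxypeptidase also called cathepsin X, was the most even member. It was expressed at 261, 237 and 252 FPKM in PBS tumors, at 270.5, 285 and 249.8 FPKM in Free PS473 tumors and at 308, 257 and 309.8 FPKM in PS473@CPs tumors. The NKMOF-101-[Mn] tumors had 282, 306 and 289 FPKM, the M5@NKMOF-101-[Mn] tumors 327, 275 and 309 FPKM, and the PS473@NKMOF-101-[Mn] tumors 285, 288 and 285 FPKM. All 9 framework tumors therefore lay above all 3 PBS tumors, although they overlapped with the other groups without framework. The share of all genes that separate in this way was not determined. Against PBS the framework groups, in the order above, differed by 0.23, 0.28 and 0.19 (log2, SE 0.095 each). Their unadjusted p-values were 0.0310, 0.0106 and 0.0582, with adjusted p-values of at least 0.993 in limma. PS473@CPs tumors, without framework, differed from the same PBS tumors by 0.22 ± 0.095 (unadjusted p = 0.0369, adjusted p = 0.9998, limma). Whether low Ctsz in the shared PBS tumors accounts for these differences was not tested. Over the 18 tumors Ctsz had r = -0.51 with the skin score, which was -0.26 without PBS tumor 2 and PS473@CPs tumor 2, and its slope on this score within groups did not pass (-0.027 ± 0.015, SE, adjusted p = 0.375, limma). PBS tumors 2 and 3 had skin scores of 5.46 and 4.46, whereas PBS tumor 1, with the highest Ctsz of its group, had 0.31. The part of skin content in the Ctsz values of PBS tumors was not tested. With the skin score in the fit, the difference between tumors with and without the framework was 0.11 (unadjusted p = 0.0618, limma), against 0.13 (unadjusted p = 0.0365) without it. With the melanocyte score Ctsz had r = 0.63, which was 0.51 without Free PS473 tumor 3 and PS473@CPs tumor 2. Its slope on the melanocyte score within groups did not pass either (0.32 ± 0.10, SE, adjusted p = 0.154, limma).

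Ctsa, which protects the lysosomal enzymes Neu1 and Glb1, ranged from 43.6 to 62.2 FPKM. Its highest group mean was 56.6 ± 5.42 FPKM in M5@NKMOF-101-[Mn] and its lowest 46.9 ± 3.17 FPKM in PS473@NKMOF-101-[Mn] (SD, n = 3), and these groups did not overlap (difference -0.27 ± 0.11, log2, SE, unadjusted p = 0.0304, adjusted p = 1, limma). The other 4 group means lay between 49.2 and 50.5 FPKM. Ctsf, another cysteine endopeptidase, ranged over all groups with overlap, with means from 1.24 ± 0.445 FPKM in NKMOF-101-[Mn] to 1.89 ± 0.336 FPKM in PS473@CPs tumors. Ctsa, Ctsb and Ctsz overlap genes on the opposite strand (Neurl2 and Pltp, Fdft1, and Nelfcd) in the GRCm38 annotation. The library description names no step that keeps strand, so that fragments of overlapping parts cannot be assigned with certainty. The highest mean among these partners was 21.6 FPKM, for Nelfcd. Ctsc (Gm26522), Ctsl (Gm47123 and Gm49230), Ctsd (Gm49369) and Ctss (Hmgb1-ps5) overlap further annotated genes, for which no FPKM was used here.

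Ctss, the invariant chain protease of antigen-presenting cells, varied 5.91-fold. It was expressed at 19.5, 28.8 and 26.8 FPKM in PBS tumors, at 10.8, 8.50 and 40.6 FPKM in Free PS473 tumors and at 21.5, 36.4 and 35.9 FPKM in PS473@CPs tumors. The framework groups had 50.2, 36.8 and 39.8 FPKM (NKMOF-101-[Mn]), 29.2, 40.7 and 36.6 FPKM (M5@NKMOF-101-[Mn]) and 17.4, 46.4 and 20.5 FPKM (PS473@NKMOF-101-[Mn]). All tumors given the empty framework or M5@NKMOF-101-[Mn] were above all PBS tumors, while PS473@NKMOF-101-[Mn] held the lowest and the second highest framework tumor. The difference of NKMOF-101-[Mn] from PBS was 0.74 ± 0.46 (log2, SE, 95% interval -0.23 to 1.71, unadjusted p = 0.126, limma), and -0.056 with the macrophage score in the fit. These groups did not overlap in that score (3.29 to 4.05 with the empty framework, 2.64 to 3.18 in PBS), so group and score cannot be told apart there.

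Ctsc, the dipeptidyl peptidase that activates granule proteases of neutrophils and cytotoxic lymphocytes, was expressed at 6.20, 14.8 and 10.4 FPKM in PBS tumors, 5.93, 5.13 and 14.5 FPKM in Free PS473 tumors and 7.48, 15.8 and 10.1 FPKM in PS473@CPs tumors. It reached 21.4, 12.2 and 18.3 FPKM in NKMOF-101-[Mn], 9.55, 18.3 and 11.8 FPKM in M5@NKMOF-101-[Mn] and 7.27, 14.3 and 7.11 FPKM in PS473@NKMOF-101-[Mn] tumors. Every group overlapped with PBS. Ctsh, an aminopeptidase, had 10.0, 18.8 and 11.1 FPKM in PBS, 5.18, 3.56 and 22.9 FPKM in Free PS473 and 8.01, 22.9 and 12.0 FPKM in PS473@CPs tumors. Its framework values, from 6.60 to 17.7 FPKM, lay inside the range of the tumors without framework.

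Ctsb, a cysteine protease with both endopeptidase and carboxypeptidase activity, had 92.4, 101 and 91.1 FPKM in PBS tumors, 75.9, 65.9 and 131 FPKM in Free PS473 tumors and 70.7, 119 and 129.6 FPKM in PS473@CPs tumors. With the framework it had 144, 105 and 118 FPKM (NKMOF-101-[Mn]), 121, 131 and 141 FPKM (M5@NKMOF-101-[Mn]) and 85.9, 119.9 and 91.7 FPKM (PS473@NKMOF-101-[Mn]). Both framework groups without the active ribozyme lay above all PBS tumors, and M5@NKMOF-101-[Mn] also lay above PS473@NKMOF-101-[Mn]. In Ctss, Ctsc, Ctsh and Ctsb alike, tumors 1 and 2 of Free PS473 were near or at the bottom of the series and tumor 3 was high. The same tumors had macrophage scores of 2.40, 1.93 and 3.86. Scores of other leukocytes, also means of log2(FPKM + 1), were low in tumors 1 and 2 and higher in tumor 3 as well. They were 0.45, 0.44 and 0.75 for dendritic cells (9 genes) and 0.13, 0.16 and 0.42 for T and NK cells (10 genes). Slopes on these other scores were not fitted.

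Ctsk, the collagen-degrading protease, had 1 tumor far above the others. It was expressed at 8.06, 15.0 and 9.06 FPKM in PBS, at 5.11, 4.95 and 14.2 FPKM in Free PS473 and at 5.42, 37.3 and 8.47 FPKM in PS473@CPs tumors. With the framework it lay between 3.63 and 14.9 FPKM. The endopeptidase Ctsl ranged from 22.4 to 50.7 FPKM, with PBS tumor 2 (44.7 FPKM) and Free PS473 tumor 3 (42.3 FPKM) next to its highest tumor. PS473@CPs tumor 2, the highest for both genes, also had the highest skin score (5.75) and fibroblast score (4.81). Of the osteoclast markers, Acp5 reached at most 3.87 FPKM, Calcr was listed at 0 in 11 tumors, and the others except Mmp9 (at most 11.6 FPKM) stayed under 1 FPKM.

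To ask whether cathepsin expression differed with the framework, the 9 tumors given it were compared with the 9 others. The others include the 3 PS473@CPs tumors, which were injected with polymer particles, so particle injection as such was not tested. Of the 10 genes, 7 had a higher mean and 3 a lower one, with a median difference of 0.14 on the log2 scale against -0.0056 over all genes tested. None of the 10 passed the adjusted threshold of 0.05 in limma, and none of the 12357 genes did (0%). At an unadjusted p under 0.05 in limma, 2 of the 10 passed, against 4.56% of all genes. They were Ctsd (0.16 ± 0.067, log2, SE, unadjusted p = 0.0341) and Ctsz (0.13 ± 0.055, unadjusted p = 0.0365). The largest differences were those of Ctss (0.54 ± 0.26, unadjusted p = 0.0598), Ctsc (0.39 ± 0.23) and Ctsb (0.29 ± 0.14). In the other direction, Ctsk had -0.39 ± 0.32, Ctsf -0.10 ± 0.11 and Ctsl -0.093 ± 0.14. The intervals leave room for sizeable changes, from -0.025 to 1.10 for Ctss and from -1.09 to 0.30 for Ctsk.

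**Figure D2:**
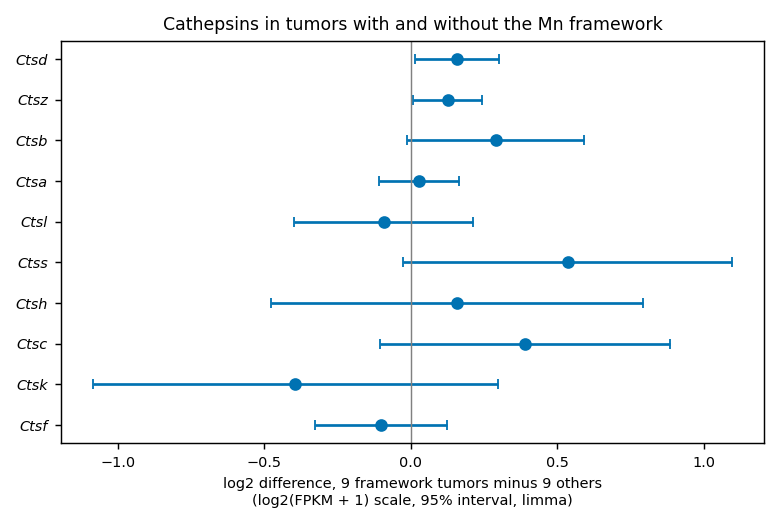
Fitted log2 difference of each cathepsin between the 9 framework tumors and the 9 others (points, horizontal axis) with its 95% interval from limma (bars). The interval lies above 0 for Ctsd and Ctsz only, before adjustment, and is widest for Ctsk, from -1.09 to 0.30.

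The macrophage score was 3.29 to 4.05 in tumors given the empty framework, above the 2.64 to 3.18 of PBS tumors. With the framework loaded it was 2.82 to 3.40 (M5@NKMOF-101-[Mn]) and 2.55 to 3.21 (PS473@NKMOF-101-[Mn]), and both overlapped with PBS. With the macrophage score in the fit, the framework difference of Ctss went from 0.54 to 0.20 and that of Ctsb from 0.29 to 0.13. That of Ctsz went from 0.13 to 0.17 and that of Ctsd from 0.16 to 0.15. Over the 18 tumors Ctsd had r = 0.64 and Ctsz r = 0.63 with the melanocyte score, though neither slope on it within groups passed. The part of melanocyte content in their framework differences was not tested. Leaving out 1 tumor moved the Ctss difference between 0.40 and 0.76, with the lowest values without PS473@NKMOF-101-[Mn] tumor 2 or Free PS473 tumor 2 and the highest without Free PS473 tumor 3 (adjusted p = 0.666, limma).

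Each treatment was then compared with PBS. None of the 10 genes passed the adjusted threshold in any of the 5 treated groups, and neither did any gene (0% in each comparison, limma). At an unadjusted p under 0.05, Ctsz passed in PS473@CPs (0.22 ± 0.095, log2, SE), where 2.09% of genes did, and in NKMOF-101-[Mn], where 1.46% did. Ctsz and Ctsd passed in M5@NKMOF-101-[Mn] tumors, beside 1.51% of genes. In Free PS473 and PS473@NKMOF-101-[Mn] tumors 0 of the 10 did, beside 224 and 260 of all genes. Groups did not overlap with PBS for 3 of the 10 genes in NKMOF-101-[Mn] (Ctsb, Ctss and Ctsz, 6.02% of all genes), for 4 in M5@NKMOF-101-[Mn] (Ctsb, Ctsd, Ctss and Ctsz, 8.11%) and for 1 in PS473@NKMOF-101-[Mn] (Ctsz, 4.66%), and all were higher. The median difference of the 10 genes was -0.19 in Free PS473, 0.11 in PS473@CPs, 0.089 in NKMOF-101-[Mn], 0.22 in M5@NKMOF-101-[Mn] and -0.034 in PS473@NKMOF-101-[Mn] tumors. These comparisons share the PBS tumors. The median over all genes lay between -0.014 and 0.028.

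The loaded framework was compared with each of its controls. None of the 10 genes passed the adjusted threshold against any of the 4 other treated groups, nor with the mutant in the framework against the empty framework (0% of genes in each, limma). With array weights, 78 genes passed against Free PS473, none of them a cathepsin. At an unadjusted p under 0.05, 0 of the 10 passed against PS473@CPs (283 of all genes), the empty framework (284) and Free PS473 (615). Against M5@NKMOF-101-[Mn], which differs by the inactivating mutation of the ribozyme, 9 of the 10 genes had a lower mean, with a median of -0.25 against -0.0081 over all genes. Ctsa was the one below an unadjusted p of 0.05 there (0.591% of genes), and Ctsa and Ctsb did not overlap (4.48%). Against the empty framework 8 of the 10 had a lower mean, Ctsc by the most (-0.83, log2), and Ctsl did not overlap (lower, 7.91% of genes). With the macrophage score in the fit, the median of this comparison went from -0.26 to 0.13 and the difference of Ctsc to -0.048. These groups did not overlap in the macrophage score, so group and score cannot be told apart there. In M5@NKMOF-101-[Mn] against the empty framework, Ctsd was higher by 0.26 ± 0.12 (log2, SE, unadjusted p = 0.0407, where 3.07% of genes passed) and did not overlap, as for 15% of genes. Macrophage scores were 2.55 to 3.21 in PS473@NKMOF-101-[Mn] tumors, 2.82 to 3.40 in M5@NKMOF-101-[Mn] tumors and 3.29 to 4.05 in NKMOF-101-[Mn] tumors. A test for any difference among the 6 groups called none of the 10 genes and 0% of all genes, with the lowest unadjusted p for Ctsd (0.0871).

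The spread among tumors was then set beside their cell content. Within groups, 4 of the 10 genes rose with the macrophage score at an adjusted p under 0.05 in limma, against 5.21% of all genes. Their slopes, in log2(FPKM + 1) per unit of the score, were 1.30 ± 0.12 for Ctsh (SE, adjusted p = 7.75e-05), 1.14 ± 0.11 for Ctss (7.76e-05), 0.96 ± 0.13 for Ctsc (0.000956) and 0.56 ± 0.093 for Ctsb (0.00389). Ctsk (0.98 ± 0.30, adjusted p = 0.0712) and Ctsl (0.43 ± 0.14, 0.0782) did not pass. Ctsd (0.040 ± 0.084), Ctsa (0.099 ± 0.075) and Ctsf (0.011 ± 0.13) had slopes near 0, and that of Ctsz was negative (-0.13 ± 0.058, adjusted p = 0.193).

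Over the 18 tumors without regard to group, Ctss and the macrophage score had r = 0.92 and rho = 0.94, and r was 0.88 without the 2 tumors farthest from the median score (Free PS473 2 and NKMOF-101-[Mn] 1). Ctsc had r = 0.93 and rho = 0.95, and 0.91 without them. For both genes the permutation p was 1e-05, the smallest that 100000 permutations can give, among 40 relations of the 10 genes with 4 scores. In the 9 tumors with a skin score under 1, fitted alone, without group means because 3 groups have 1 such tumor each, 3 of the 4 genes kept an adjusted p under 0.05 and Ctsb did not (slope 0.62, adjusted p = 0.137).

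**Figure D3:**
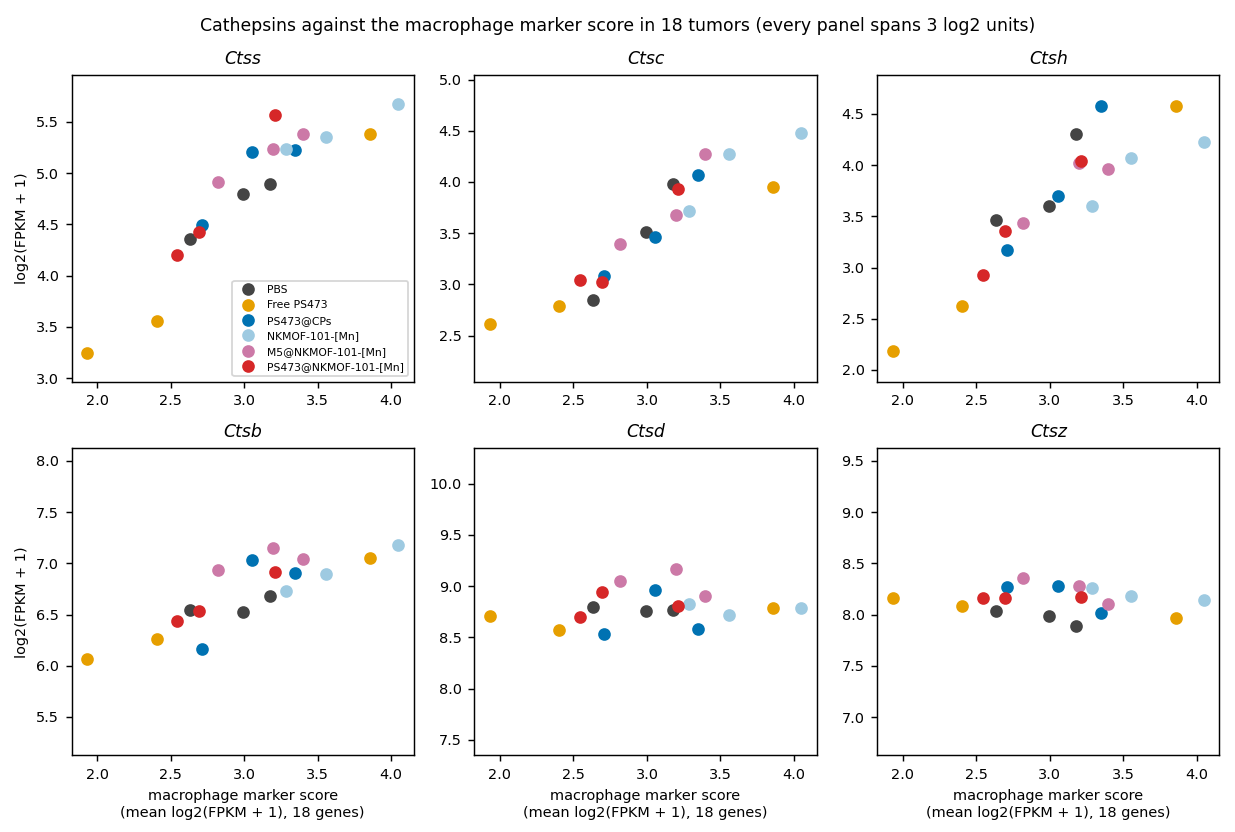
log2(FPKM + 1) of 6 cathepsins (vertical axes, each spanning the same length) against the macrophage marker score (horizontal axis, mean log2(FPKM + 1) of 18 genes), with 1 point per tumor colored by group. Ctss, Ctsc, Ctsh and Ctsb climb with the score (slopes 0.56 to 1.30), whereas Ctsd (0.040) and Ctsz (-0.13) do not.

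The fibroblast score gave 6 rising genes, against 7.93% of all genes. They were Ctsk (0.67 ± 0.11, SE, adjusted p = 0.00111), Ctsh (0.61 ± 0.11), Ctss (0.51 ± 0.10), Ctsc (0.48 ± 0.078), Ctsb (0.26 ± 0.061) and Ctsl (0.24 ± 0.068, adjusted p = 0.0404). The call of Ctsl ended on leaving out any of 11 tumors (adjusted p up to 0.170) and that of Ctsb on leaving out Free PS473 tumor 3 or PS473@CPs tumor 1. With the skin epithelium score Ctsk (0.28 ± 0.052, adjusted p = 0.00282), Ctsh (0.23 ± 0.058) and Ctsc (0.19 ± 0.043) rose, against 6.06% of genes, and without PS473@CPs tumor 2 only Ctsk of these passed. The call of Ctsh on this score ended on leaving out any of 7 tumors and that of Ctsc also without PBS tumor 1. None of the 10 rose with the melanocyte score, as did 0.558% of genes. Ctsz (0.32 ± 0.10, adjusted p = 0.154) and Ctsd (0.24 ± 0.15, adjusted p = 0.536) had the highest slopes on it, and Ctsh (-1.80 ± 0.54, adjusted p = 0.135) the lowest.

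Macrophage and fibroblast scores shared much of their variation. With both in 1 fit, 0 of the 10 genes passed for either score, beside 0.146% of genes that rose with the macrophage score and 3.69% with the fibroblast score. The macrophage slopes of Ctss (1.11 ± 0.20, adjusted p = 0.0519, limma) and Ctsh (1.12 ± 0.21, 0.0605) kept their size, and their fibroblast slopes were 0.020 and 0.11. That of Ctsc went from 0.96 to 0.63 ± 0.21 (adjusted p = 0.221), beside a fibroblast slope of 0.21, and that of Ctsb from 0.56 to 0.47 ± 0.17 (adjusted p = 0.247). Ctsk had the reverse, with a fibroblast slope of 0.77 ± 0.21 (adjusted p = 0.0594) and a macrophage slope of -0.23 ± 0.39.

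**Figure D4:**
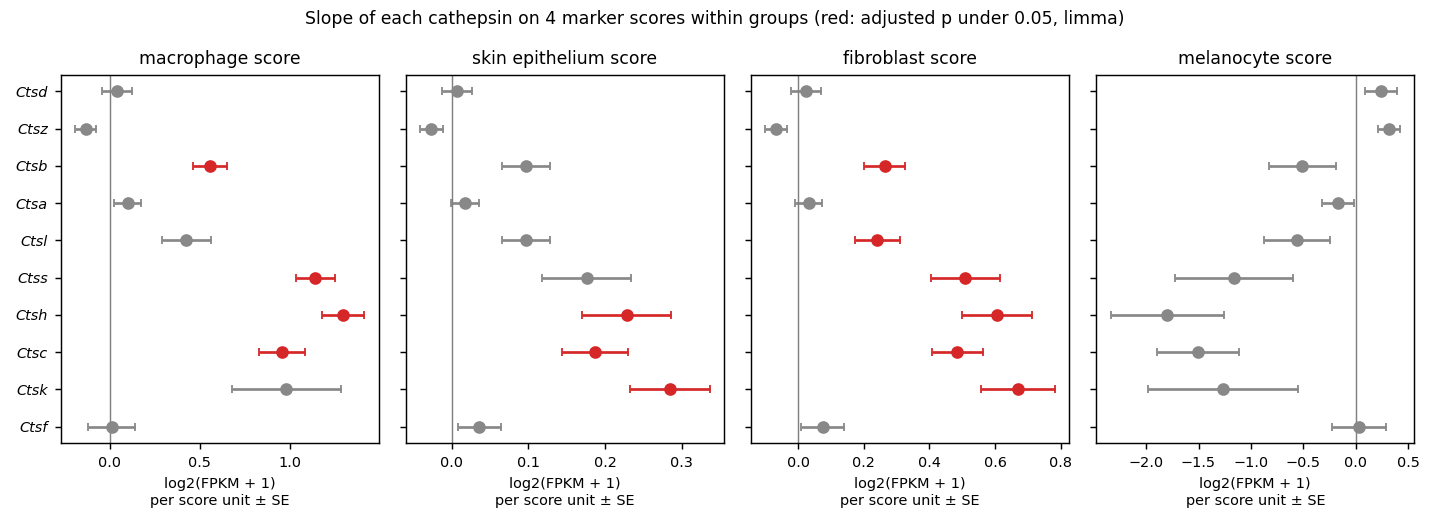
Slope of each cathepsin within groups (points, log2(FPKM + 1) per unit of the score, bars ± SE) on 4 marker scores, with separate horizontal scales. Red points have an adjusted p under 0.05 in limma, which 4 genes reach on the macrophage score, 3 on the skin epithelium score, 6 on the fibroblast score and 0 on the melanocyte score.

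As a description over the 18 tumors, which share their cell content and depth, the cathepsins were compared in pairs. Ctss, Ctsc, Ctsh and Ctsb were correlated with each other at r of 0.81 to 0.90. Ctsk and Ctsl had r = 0.83, and Ctsl was also close to Ctsh (r = 0.81). Ctsd had r = 0.59 with Ctsb, 0.43 with Ctsa and 0.42 with Ctsz, and Ctsa had r = 0.59 with Ctsb. Ctsz had r = -0.48 with Ctsk. Ctsk and Ctss are neighbors on chromosome 3 and had r = 0.44.

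**Figure D5:**
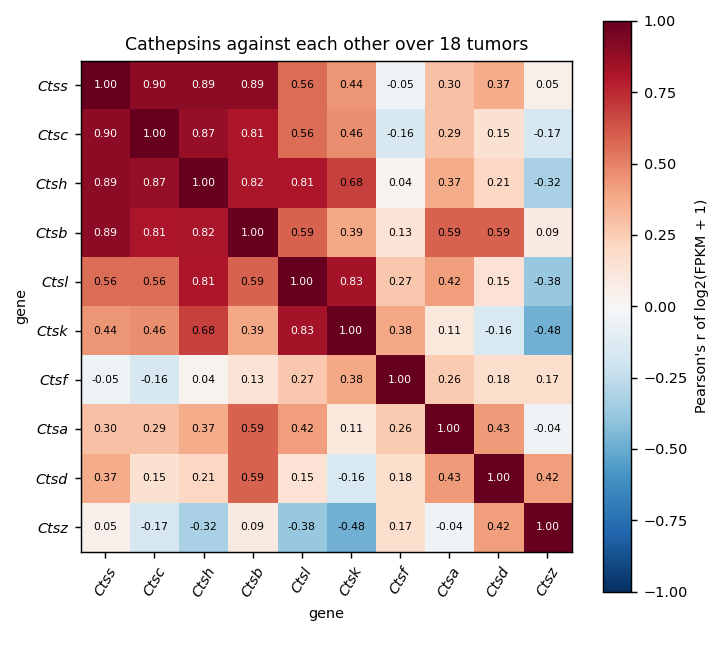
Pearson's r of log2(FPKM + 1) between each pair of cathepsins over the 18 tumors (rows and columns, genes; color and printed value, r from -1 to 1). Ctss, Ctsc, Ctsh and Ctsb form a block of 0.81 to 0.90, and Ctsz has its lowest value, -0.48, with Ctsk.

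For each cathepsin the 3 genes with the highest r over the 18 tumors were listed from all genes tested. For Ctss they were Coro1a (r = 0.98), an actin regulator of leukocytes, Fcer1g (0.96), a signaling chain of Fc receptors, and Clec4a3 (0.96), a myeloid lectin. Ctsc was closest to Prex1 (0.97), Inpp5d (0.96) and Laptm5 (0.96), a lysosomal protein of blood cells. Ctsh was closest to Ms4a6d (0.96), Tgfbi (0.94) and Lgals3 (0.94), and Ctsb to Pros1 (0.91), Tyrobp (0.90) and Lcp1 (0.90). Fcer1g and Tyrobp are also part of the macrophage score. Ctsd was closest to Atp6v1b2 (0.88), a subunit of the proton pump that acidifies lysosomes, to Cited1 (0.88), a transcriptional coregulator of melanocytes, and to Abhd12 (0.87). For Ctsz they were Aph1a, Dynll2 and Ppt2 (0.79 to 0.82), for Ctsa Hsd3b7, Rnf128 and Adm (0.77 to 0.79), and for Ctsf Tspan17, Leprot and Tax1bp3 (0.75 to 0.82). Ctsk had Rps4l, F2rl1 and S100a16 (0.92 to 0.96) and Ctsl Pdpn, Mir147 and AA467197 (0.90 to 0.91).

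Other genes of the pathway were read from lists chosen by function, with earlier results of these data known. Of 13 further cathepsins only Ctso passed the filter (5.06 FPKM, framework difference 0.22 ± 0.13, log2, SE, adjusted p = 0.900 in limma), and Cts3, Cts6, Cts7, Ctsm, Ctsr and Ctsll3 were listed at 0 in all 18 tumors. None of the genes in any list described here passed the adjusted threshold in any comparison. Of 8 cathepsin inhibitors tested, 2 were higher and 6 lower with the framework, with a median of -0.51. Cst3 (219 FPKM) and Cstb (79.8 FPKM), the widespread cystatin C and stefin B, differed by 0.063 ± 0.12 and -0.15 ± 0.17. The stefins Stfa1 (0 to 182 FPKM) and Stfa3 (0 to 210.4 FPKM) were listed at 0 in 8 tumors each. Stfa1 (slope 1.27, adjusted p = 7.68e-06, limma) and Stfa3 (slope 1.28, adjusted p = 3.64e-08) rose with the skin score. Of the 8 inhibitors, 7 rose with the macrophage score, 5 with the skin score and 6 with the fibroblast score. The shares of all genes that rose were 5.21%, 6.06% and 7.93%.

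Of the 10 genes of cathepsin activation and sorting, 5 were higher and 5 lower with the framework (median 0.011). Psap, the saposin precursor that cathepsin D cleaves, was at 240.0 FPKM with the framework and at 195 FPKM without (0.29 ± 0.086, log2, SE, unadjusted p = 0.00398, adjusted p = 0.900, limma). Lgmn, the legumain that cleaves cathepsin precursors, had 107 and 91.8 FPKM (0.22 ± 0.13) and was the gene of this list that rose with the macrophage score (slope 0.53 ± 0.067, adjusted p = 0.000782). Sort1, the sorting receptor sortilin, fell with it (slope -0.52 ± 0.12, adjusted p = 0.0205).

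Among other lysosomal hydrolases 23 of 26 were higher with the framework, with a median of 0.099, against 47.6% of all genes higher, and 3 had an unadjusted p under 0.05 (4.56% of all genes). Hexa, a beta-hexosaminidase subunit, differed by 0.19 ± 0.086 and Gaa, the acid alpha-glucosidase, by 0.16 ± 0.11. Gm2a, the activator of GM2 breakdown, differed by 0.20 ± 0.090 and Smpd1, the acid sphingomyelinase, by 0.19 ± 0.14. Of the 15 genes of the lysosomal membrane and acidification 13 were higher (median 0.062), among them Cd63 (0.074 ± 0.11), Lamp1 (0.023 ± 0.062), Npc1 (0.16 ± 0.092) and Atp6v1b2 (0.18 ± 0.066, unadjusted p = 0.0167). The 3 regulators tested, Mitf, Tfe3 and Tfeb, had differences of 0.073 ± 0.12, 0.071 ± 0.068 and 0.11 ± 0.084. Of the 26 hydrolases 1 rose and 1 fell with the macrophage score, and 0 of the 15 membrane genes did either. Among all genes 5.21% rose and 1.38% fell with it.

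Genes of MHC class II processing, the pathway in which Ctss acts, were higher with the framework in 7 of 8 cases (median 0.66), against 47.6% of all genes. Of these 8 genes, 7 had an unadjusted p under 0.05 in limma, against 4.56% of all genes. Cd74, the invariant chain, was at 248 FPKM with the framework and 131 FPKM without (1.07 ± 0.33, log2, SE, adjusted p = 0.900, limma), with a range from 25.6 to 518 FPKM over all tumors. H2-Aa, a class II chain, was at 93.5 and 57.2 FPKM (0.82 ± 0.31). All 14 interferon response genes were higher, against 47.6% of all genes (median 0.54, 7 at an unadjusted p under 0.05, against 4.56% of all genes). Among them were Cxcl10 (0.10 ± 0.17), a chemokine of T cells, and the GTPases Igtp (0.88 ± 0.28) and Gbp2 (0.80 ± 0.32). Tumors 1 and 2 of Free PS473 had the lowest class II scores (3.28 and 3.63) and the lowest interferon scores (3.36 and 2.95), and PS473@NKMOF-101-[Mn] tumor 2 had the highest of both (5.84 and 5.69). With the macrophage score 3 of the 8 class II genes and 2 of the 14 interferon genes rose, as did 5.21% of all genes. The part of macrophage or skin content in these differences was not tested.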

How the data were processed

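Poly(A) RNA of 18 tumors was sequenced. The authors deposited FPKM values with a length for each of 41079 genes, and the labels give the genome build as GRCm39. The aligner, counter and annotation are not given in the sources used here. Many of the low values were not whole numbers of fragments, so no count model was used.

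The cathepsins and all other lists were chosen with earlier results of these data known. Tumors were grouped from their sample titles and the treatment description, and the columns of all 18 tumors were used. Columns named for PBS with PS473 were read as Free PS473. On the log2(FPKM + 1) scale, limma 3.58.1 in R 4.3.3 was run on 12357 genes whose mean reached 1 FPKM (6 group means, trended prior variance). Benjamini-Hochberg adjustment covered all genes tested, with a threshold of 0.05. Slopes were fitted by adding a score, the mean log2(FPKM + 1) of a marker list without cathepsins, to the group means. Correlations used Python 3.11.15 with scipy 1.17.1, with 100000 permutations. The fits were tested on simulated data.

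Named were the 10 cathepsins, of each list the 2 genes of highest mean and the 2 of largest framework difference, and for each cathepsin the 3 genes of highest r. Sort1, Cd274, Krt5, Dct, Pmel, the osteoclast markers and the cathepsins listed at 0 fall outside this rule and were named after their values were seen.

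Alternatives were a pseudocount of 0.1, no filter or one at 0.1 FPKM, quantile and upper-quartile scaling, no trend, array weights, a replicate block, the compared groups alone, the skin score as a covariate, slopes without group means, and leaving out each tumor. Both scores in 1 fit, the tumors with little skin alone and the macrophage score as a covariate were added after seeing the data. Promoters were taken by symbol from RefSeq, build GRCm38.p6, and gene overlaps from GENCODE on GRCm38. The other assays of the study were not analysed here.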

Additional observations from a re-analysis of the deposited data

How the results depend on the processing

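No cathepsin passed the adjusted threshold between groups under any alternative, with limma throughout. Over all genes the 0 calls became 78 with array weights in PS473@NKMOF-101-[Mn] against Free PS473, and 1 to 3 with no filter in 8 comparisons. The count of cathepsins rising with the macrophage score stayed at 4 under all scalings, filters and weights tried, and was 3 in the tumors with little skin and 0 with the fibroblast score beside it. With the fibroblast score the count was 0 beside the macrophage score and 0 in the tumors with little skin. With the replicate block the skin score called 1 cathepsin and the melanocyte score 1. Replicate numbers did not pair the tumors: same-numbered tumors of different groups had deviations with r from -0.73 to 0.72 over 45 pairs, 18 of them above 0.1, and 4 of 18 tumors correlated best with their own number. Leaving out 1 tumor gave 1 to 4 calls on the skin score, with 1 without PS473@CPs tumor 2. With the macrophage score in the fit, the median difference of the cathepsins between PS473@NKMOF-101-[Mn] and NKMOF-101-[Mn] tumors went from -0.26 to 0.13. These groups did not overlap in the score, so group and score cannot be told apart there.

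Some uncalled differences changed sign, and the cause was not tested. With array weights they were Ctsd against PS473@CPs (-0.0051, PS473@NKMOF-101-[Mn] tumors) and Ctsl with the framework (0.049). With the skin score in the fit they were Ctsk against PBS with the empty framework (0.17) and in PS473@NKMOF-101-[Mn] tumors (0.085). With the macrophage score they were Ctss in NKMOF-101-[Mn] against PBS (-0.056) and, with the framework, Ctsa (-0.0022) and Ctsh (-0.22). Leaving out 1 tumor gave -0.48 to 0.14 for Ctsk in NKMOF-101-[Mn] against PBS (above 0 without PBS tumor 2 or NKMOF-101-[Mn] tumor 3), -0.0024 to 0.055 for Ctsa with the framework, -0.22 to 0.00076 for Ctsd in PS473@CPs against PBS, -1.21 to 0.082 for Ctsk in PS473@NKMOF-101-[Mn] against PS473@CPs (above 0 without PS473@CPs tumor 2) and -0.0021 to 0.28 for Ctsf in PS473@NKMOF-101-[Mn] against NKMOF-101-[Mn]. Depth limits Ctsf, with an estimated 44 fragments in its lowest tumor.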
